A study of Homo sapiens with 4 samples.

Results

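The plexins, semaphorins, Eph receptors, ephrins and integrins are cell surface proteins through which cells read their neighbours and the matrix around them. Their messenger RNAs were examined for N6-methyladenosine (m6A) sites in C643 cells. Members were the protein-coding genes of GENCODE release 44 whose symbols name a plexin, a semaphorin, an Eph receptor, an ephrin or an integrin subunit, and a site was assigned to a member when it lay in one of its exons on the same strand. The rule took 78 of 20033 protein-coding genes: 9 plexins, 20 semaphorins, 14 Eph receptors, 8 ephrins and 27 integrin genes. The last family includes ITGBL1, an integrin-like gene that the symbol rule also takes. Of the 18789 listed sites, 200 lay in exons of 19 member genes, and 59 members had none.

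C643 is a human cell line that was established from an anaplastic carcinoma of the thyroid. All cells were untreated wild type (WT), and miCLIP2 was performed on their polyadenylated RNA in 3 biological replicates. Replicate 1 was split into 2 technical libraries, which makes 4 libraries in all. miCLIP2 crosslinks RNA fragments to an antibody against m6A with ultraviolet light, and reverse transcription of the recovered fragments then stops at the crosslinked nucleotide. The replicates had been pooled into 1 list, in which each 1-nt site carries the prediction score of the classifier m6Aboost, so there is no spread between replicates, no second group to test against and no known depth behind a site.

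The score runs from 0.5 to 1 in this list and rates how well a peak resembles an m6A site. It is not the share of RNA molecules that are methylated. A gene can be listed only where its RNA is present in sufficient amount, and low RNA cannot be told apart from unmethylated RNA in a gene with no site. RNA levels were not analysed here. Percentages are given with 95% Wilson intervals, which cover counting only and treat sites or motifs of one gene as independent, which they are not. With 1 pooled list and 1 group, no difference between the members and other genes was tested, and the values are set side by side as a description.

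Semaphorins are secreted or membrane-bound ligands, and plexins are their receptors, with neuropilins as co-receptors for the secreted class. Plexins act on small GTPases and thereby on the cytoskeleton and on attachment to the matrix. Eph receptors are receptor tyrosine kinases whose ephrin ligands are themselves held on the neighbouring cell, EFNA proteins by a lipid anchor and EFNB proteins by a transmembrane segment. Integrins pair an alpha with a beta subunit and bind matrix proteins such as fibronectin, laminin and collagen. All of these families are known for axon guidance or adhesion, and in carcinomas for migration and invasion. m6A is written by the METTL3 complex, mostly at the motif DRACH (D is A, G or T, R is A or G, and H is A, C or T), and is known to gather near stop codons and in long exons.

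The sequences below show the highest-scoring sites of each family in 21 nt of GRCh38, read 5′ to 3′ on the strand of the gene. Capitals mark the pentamer centred on the modified A. They are shown because the surrounding sequence was one of the inputs of the classifier, beside the region, the signal strength and C-to-T transitions.
PLXNA1 3′ UTR, chr3:127035458-127035478 (+ strand), score 0.968: caaggaaaGGACTtcctgctg
PLXND1 3′ UTR, chr3:129555904-129555924 (- strand), score 0.968: cagcccagAAACTctacctca
SEMA4C CDS, chr2:96860931-96860951 (- strand), score 0.968: cagatgagAAACTttgggatc
SEMA7A 3′ UTR, chr15:74409636-74409656 (- strand), score 0.958: aggttccaGGACTctgccctt
EPHA2 3′ UTR, chr1:16124773-16124793 (- strand), score 0.963: cagactgtGAACTtgactggg
EPHA2 3′ UTR, chr1:16125044-16125064 (- strand), score 0.919: cctggcctGAACTgaggagat
EFNA4 3′ UTR, chr1:155069187-155069207 (+ strand), score 0.793: acagccctGGACActctgaag
EFNA4 3′ UTR, chr1:155069264-155069284 (+ strand), score 0.771: ccccaggaGGACTgggatttg
ITGA3 3′ UTR, chr17:50089515-50089535 (+ strand), score 1: ctgctcgtGGACTgtgctggt
ITGA11 3′ UTR, chr15:68302451-68302471 (- strand), score 0.957: atgaagaaAGACTctgagatg
All of these sites lay at DRACH, and 9 of the 10 were in a 3′ UTR. The pentamers themselves varied: GGACT stood at 4 of them, AAACT and GAACT at 2 each, GGACA at 1 and AGACT at 1. ITGA3 held the only member site with a score of 1. The highest scores of PLXNA1 and PLXND1 had the same value, at different pentamers.

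For contrast, the lowest-scoring sites of the plexins, semaphorins and integrins are shown in the same way, and that of the Eph receptors stands further on beside its neighbour. In the plexins this site was at GGAGT, a pentamer in which the A is not followed by C.
PLXNA1 3′ UTR, chr3:127034090-127034110 (+ strand), score 0.505: atgcgtgtGGAGTgtccggtg
SEMA4B CDS, chr15:90228044-90228064 (+ strand), score 0.53: cccactggGGACCtgctgctg
ITGB5 CDS, chr3:124848446-124848466 (- strand), score 0.501: gatgacttGGACAatatccgg
The pentamers GGACC and GGACA at these coding sites match DRACH, so sites matching the motif had scores at both ends of the range.

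Of the 78 member genes, 19 (24.4%, 16.2 to 34.9) had a listed site, against 19.7% of all protein-coding genes. The interval of the members' share includes the background. The median was 10 sites per gene with a site, against 3 over the 3752 protein-coding genes to which sites were assigned, but ITGAE, EFNA4, EPHB6, SEMA3B and SEMA6B had 3 or fewer. The chosen transcripts of the 19 genes were also longer than those of all protein-coding genes with a site, with a median of 4250 nt against 2833 nt. Members without a site had a still longer median, 5129 nt. The part of length in the number of sites was not tested. By family, sites were listed in 3 of 9 plexins (57 sites), 6 of 20 semaphorins (46 sites), 4 of 14 Eph receptors (41 sites), 1 of 8 ephrins (2 sites) and 5 of 27 integrin genes (54 sites).

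**Figure D1:**
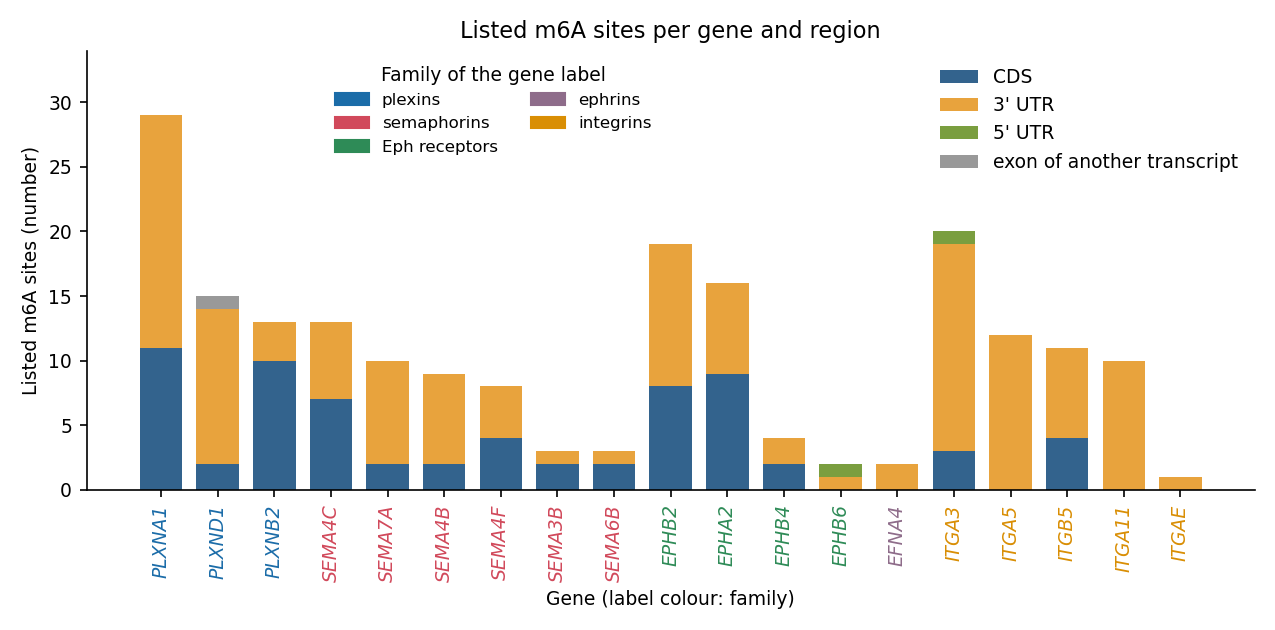
Number of listed m6A sites (y axis) in each of the 19 member genes with a site (x axis), stacked by region: coding sequence (CDS), 3′ UTR, 5′ UTR or an exon found only in another transcript; label colours give the family. PLXNA1 stands highest with 29 sites, PLXNB2 is mostly coding with 10 of 13 sites, and ITGA5, ITGA11, ITGAE and EFNA4 have 3′ UTR sites and no others.

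Among the plexins, PLXNA1 had 29 sites, PLXND1 had 15 and PLXNB2 had 13. PLXNA1, a receptor for secreted semaphorins together with neuropilins, ranked 6 among the 3752 genes by number of sites, a rank it shared with others, 3 genes in all having 29 sites. It lies at chr3:126982693-127037389 on the plus strand, and its chosen transcript of 9309 nt has 32 exons. The 11 coding sites of PLXNA1 fell in 2 separate stretches with a lone site between them. Exon 2, which is 1267 nt long, held 6 sites between codons 91 and 335, 5 coding sites lay in exons 20, 30, 31 and 32, and the other 18 sites were in the 3′ UTR. The first stretch lies in the N-terminal extracellular region, where plexins carry their sema domain. Coding scores ranged from 0.572 to 0.870, and the 3′ UTR sites from 0.505 to 0.968. Distances from the stop codon are counted from its first base along the spliced transcript. The most distal 3′ UTR site of PLXNA1 lay at 3203 nt, 94.9% of the way through the UTR.

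In PLXNB2, a receptor for class 4 semaphorins, 10 of 13 sites lay in exon 3, which is 1081 nt long. These sites spanned codons 26 to 317 and had scores from 0.587 to 0.805. The other 33 coding exons between exon 3 and the last one held none, and 3 sites followed in the 3′ UTR at 29, 159 and 516 nt from the stop codon with scores of 0.826, 0.763 and 0.859. PLXNB2 and PLXNA1 thus both had a run of sites in the long exon that encodes the start of the extracellular part.

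PLXND1, known as the endothelial receptor of SEMA3E, had a different layout. It had no site in the extracellular part: 14 of its 15 sites were in the last exon, 2 of them in the final codons (1901 and 1916) and 12 in the 3′ UTR of 1098 nt, with scores from 0.597 to 0.968. The first exon of PLXND1 is 1348 nt long, but no site was listed in it. The remaining site (chr3:129556747, score 0.525) lay in intron 34 of the chosen transcript, which another transcript retains as exon. Intron 35, of 188 nt, held 3 further sites (129556559, 129556528 and 129556480, scores 0.555, 0.643 and 0.833) that are in no annotated exon and are not counted among the 200. No site was listed in PLXNA2, PLXNA3, PLXNA4, PLXNB1, PLXNB3 or PLXNC1.

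**Figure D2:**
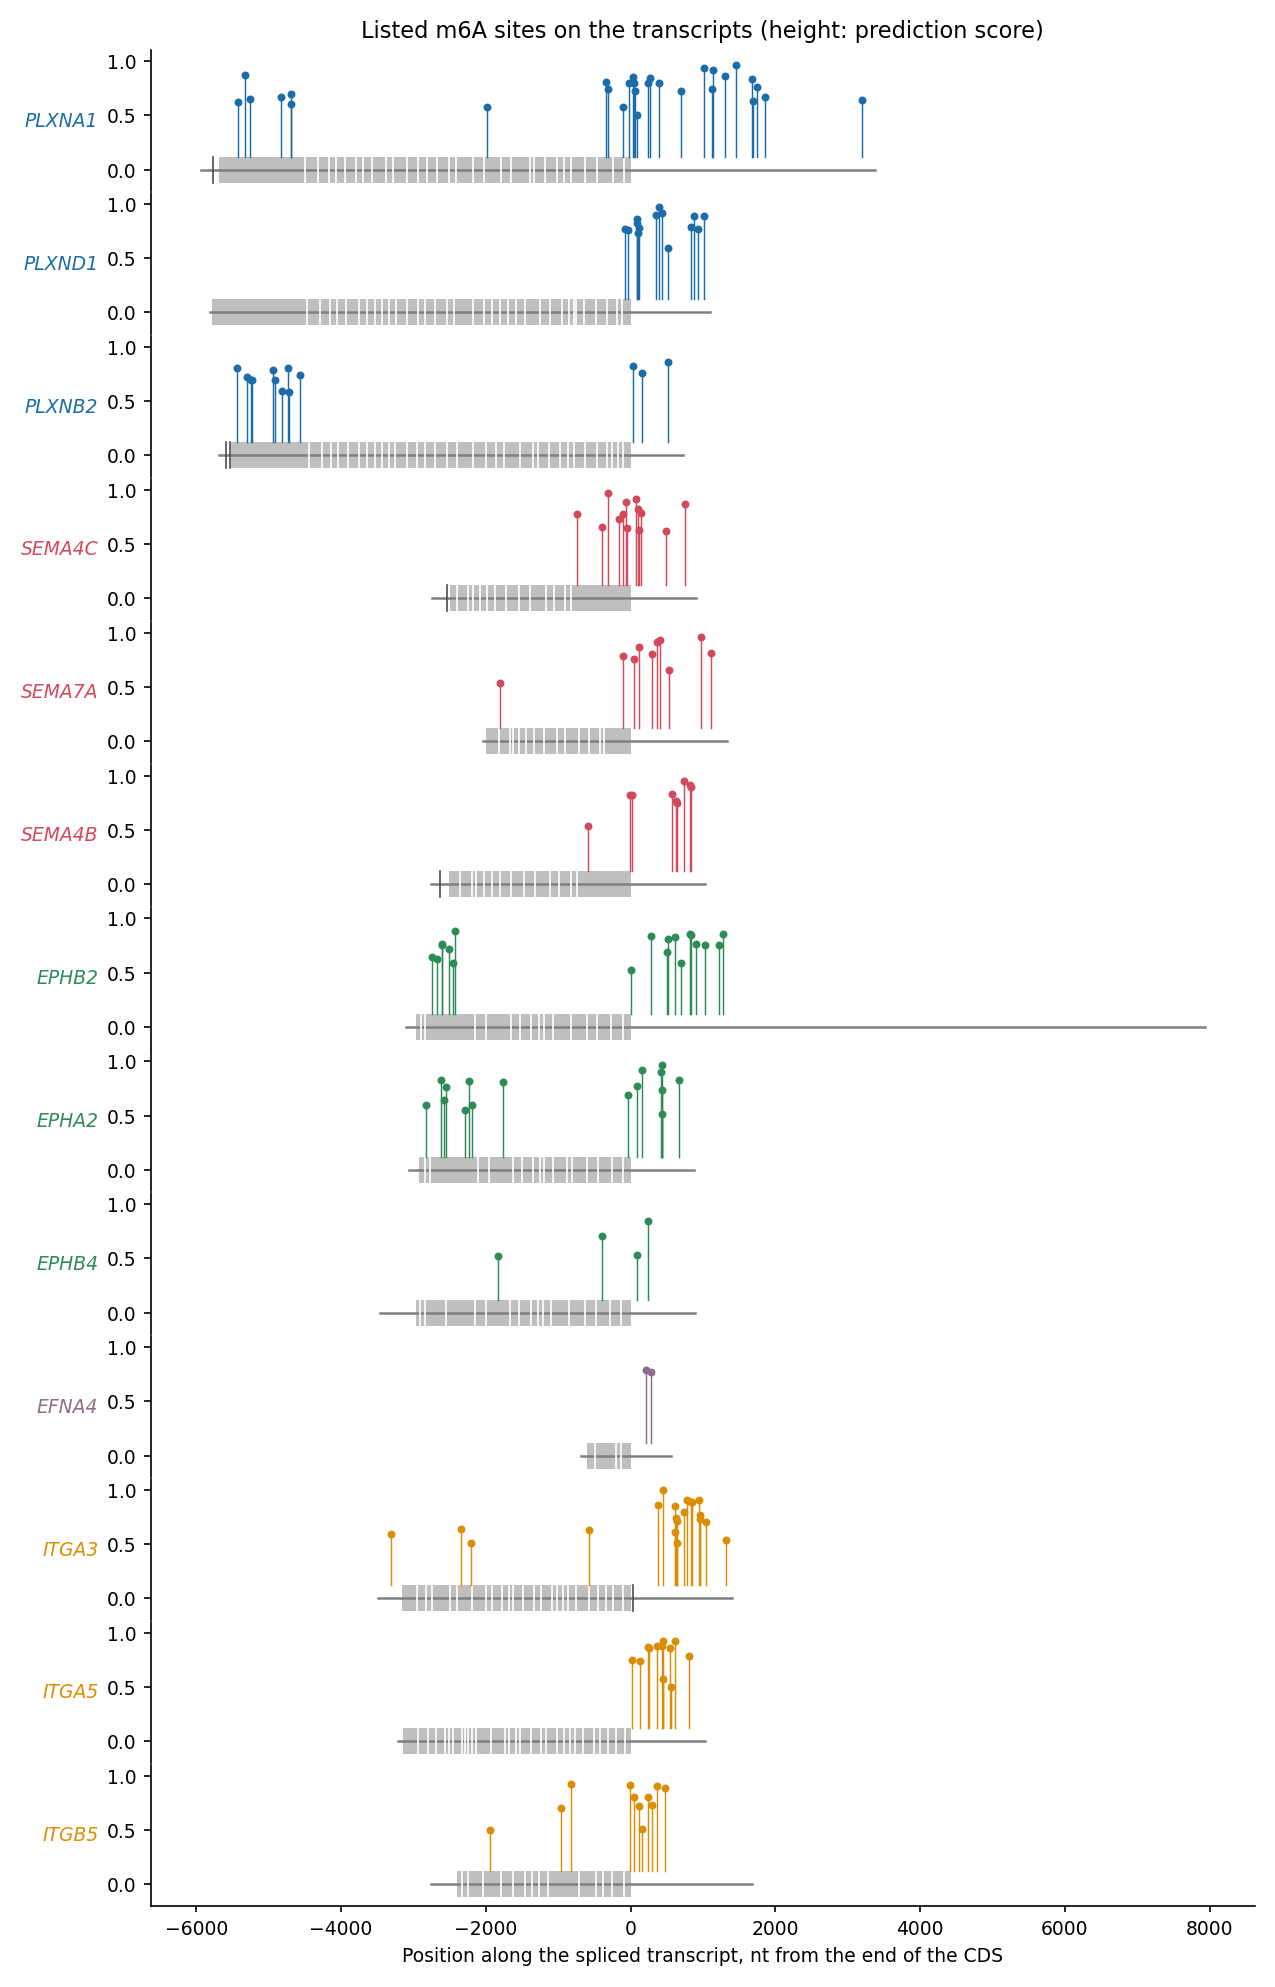
Listed sites on the spliced transcripts of the 3 genes with the most sites in each family (1 ephrin), placed by their distance in nt from the end of the CDS (x axis); the grey bar is the CDS, ticks are exon junctions, lines are UTRs and the height of each point is the prediction score (y axis). Clusters stand in the long early exon of PLXNA1, PLXNB2, EPHB2 and EPHA2, whereas the sites of SEMA4C, SEMA4B, PLXND1 and ITGA5 gather at and after the end of the CDS.

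Among the semaphorins, SEMA4C had 13 sites, SEMA7A 10, SEMA4B 9, SEMA4F 8, and SEMA3B and SEMA6B 3 each. Of these 46 sites, 45 were in the last exon, a share of 97.8% (88.7 to 99.6) against 76.3% over all protein-coding genes. The share was 87.0% in integrins, 64.3% in plexins and 56.1% in Eph receptors, and 76.9% over all members. The last exons of the semaphorins hold the end of the coding sequence as well, and 18 of their 19 coding sites were in them. The exception was a site in exon 2 of SEMA7A (codon 68, score 0.539), 25 nt from an exon junction.

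SEMA4C is a membrane-bound ligand of PLXNB2, and both genes had sites. The pair was named from the listed genes, so no pattern is read from it. The 13 sites of SEMA4C all lay in exon 15, 7 in the CDS from codon 589 to codon 816 and 6 in the 3′ UTR. Of the 13, 8 fell within 296 nt around the stop codon. The highest score of the semaphorins, 0.968, was at an AAACT in codon 729. SEMA4C had the largest share of its DRACH motifs listed among the 19 genes, 11 of 55 (20%, 11.6 to 32.4).

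SEMA7A is anchored in the membrane by a lipid and is known to bind PLXNC1 and beta 1 integrin. It had 8 sites in its 3′ UTR of 1335 nt, with scores from 0.657 to 0.958, and 1 in codon 633. Neither PLXNC1 nor ITGB1 had a listed site. SEMA4B, another membrane-bound class 4 ligand, had coding sites in codons 642 and 834, a site 20 nt from the stop codon, and a group of 6 sites in 261 nt further down the 3′ UTR, where the scores ranged from 0.743 to 0.951.

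SEMA4F held 4 coding sites (codons 605 to 691) and 4 sites between 1250 and 1364 nt from the stop codon, with nothing listed in between. SEMA3B, a secreted ligand, had sites in codons 686 and 691 and 1 just past the stop codon, at 7 nt. SEMA6B had its sites in codons 870 and 883 and, in the 3′ UTR, at 58 nt from the stop codon. No site was listed in SEMA3A, SEMA3C, SEMA3D, SEMA3E, SEMA3F, SEMA3G, SEMA4A, SEMA4D, SEMA4G, SEMA5A, SEMA5B, SEMA6A, SEMA6C or SEMA6D.

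Among the Eph receptors, EPHB2 had 19 sites, EPHA2 16, EPHB4 4 and EPHB6 2. EPHB2 and EPHA2 shared a layout of 2 clusters, 1 in exon 3 near the start of the coding sequence and 1 in the last exon. Exon 3 of EPHB2 is 685 nt long and held 7 sites from codon 75 to codon 180, with scores from 0.592 to 0.883. Exon 3 of EPHA2 is 670 nt long and held 6 sites from codon 104 to codon 246, with scores from 0.551 to 0.830, and EPHA2 had a further coding site in each of exons 2, 5 and 17 (codons 33, 391 and 964). Eph receptors bind ephrins through an N-terminal domain, and these codons lie in the N-terminal part of both proteins.

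The 3′ UTR of EPHB2 is 7930 nt long. Its 11 sites there all lay within 1282 nt of the stop codon, in the first 16.1% of the UTR. The site at chr1:22913570 (score 0.524) is the A of the TGA stop codon itself, in the pentamer TGACA, and was counted with the CDS. EPHA2, a receptor known to be abundant in many carcinomas, had 7 sites in its 3′ UTR of 878 nt. Of those, 4 lay at 427, 433, 434 and 439 nt from the stop codon, with scores of 0.904, 0.513, 0.963 and 0.733.

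EPHB4 had sites in codons 378 and 855 and, in the 3′ UTR, at 96 and 238 nt from the stop codon. Their scores were 0.518, 0.708, 0.533 and 0.845. EPHB6, whose kinase domain is inactive, had 1 of the 2 member sites in a 5′ UTR (chr7:142855237, GGACT, score 0.681) and 1 in the 3′ UTR (score 0.780). No site was listed in EPHA1, EPHA3, EPHA4, EPHA5, EPHA6, EPHA7, EPHA8, EPHA10, EPHB1 or EPHB3.

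Among the ephrins, EFNA4 was the only gene with sites. Both were in its 3′ UTR of 564 nt, at GGACA (chr1:155069197, score 0.793) and GGACT (chr1:155069274, score 0.771), 77 nt apart. EFNA1, EFNA2, EFNA3, EFNA5, EFNB1, EFNB2 and EFNB3 had none. Among the B-class receptors, EPHB2, EPHB4 and EPHB6 had sites and EPHB1 and EPHB3 had none. With a site in 19.7% of all protein-coding genes, the lack of one in so few B-class ephrins is not read as a difference.

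Among the integrins, ITGA3 had 20 sites, ITGA5 12, ITGB5 11, ITGA11 10 and ITGAE 1. The 3′ UTR held 46 of these 54 sites (85.2%, 73.4 to 92.3), and 7 were coding. ITGA3, the alpha subunit of a laminin receptor, ranked 38 among the 3752 genes, with 8 genes at 20 sites. Its 16 sites in the 3′ UTR of 1403 nt were all in exon 26, which follows the stop codon and is wholly untranslated, and 9 of them fell within 232 nt, the highest number in any window of 300 nt among the members. The site with a score of 1 lay 449 nt from the stop codon. The other 4 sites of ITGA3, 1 in the 5′ UTR and 3 coding, had scores from 0.514 to 0.636, below the gene's median of 0.737.

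ITGA5, the alpha subunit of the main fibronectin receptor, had all 12 sites in its 3′ UTR of 1032 nt, between 19 and 810 nt from the stop codon, with scores from 0.505 to 0.922. ITGA11, a collagen receptor subunit, had all 10 sites within 1109 nt of the stop codon, in a 3′ UTR of 6526 nt. Their scores ran from 0.720 to 0.957, the highest minimum among genes with over 3 sites. ITGA3, ITGA5 and ITGA11 all pair with the beta 1 subunit, and ITGB1 had no listed site although its transcript holds 93 DRACH motifs.

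ITGB5, which pairs with ITGAV to bind vitronectin, had 4 coding sites and 7 in the 3′ UTR. The coding site at chr3:124763627 (GGACT, score 0.917) is in codon 799, the last before the stop codon, and its pentamer runs into the stop codon. The ITGB5 site with the lowest score of all member sites, 0.501, was in codon 155. ITGAE, which pairs with ITGB7, had a single site in the 3′ UTR, 44 nt from the stop codon (score 0.833). These pairs were named from the listed genes, so 1 subunit with a site was given in advance. The other subunit had none in each, and ITGB1 is that subunit in several pairs. Of the integrin genes 18.5% had a site, against 19.7% of all protein-coding genes, so no pattern is read from the pairs.

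The other 22 integrin genes had no listed site: ITGA1, ITGA2, ITGA2B, ITGA4, ITGA6, ITGA7, ITGA8, ITGA9, ITGA10, ITGAD, ITGAL, ITGAM, ITGAV, ITGAX, ITGB1, ITGB2, ITGB3, ITGB4, ITGB6, ITGB7, ITGB8 and ITGBL1. Within the span of ITGA1 on chromosome 5, 4 sites (scores 0.562 to 0.936) lay in exons of PELO, a gene nested in it on the same strand, and in no exon of ITGA1.

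Over all 200 sites, 64.5% (57.7 to 70.8) were in the 3′ UTR, 34% (27.8 to 40.8) in the CDS and 1.00% in the 5′ UTR, and 1 site was in an exon of another transcript. Over the 18431 sites in exons of protein-coding genes the shares were 53.0%, 40.6% and 2.40%. By family the CDS share was 40.4% in plexins, 41.3% in semaphorins, 46.3% in Eph receptors and 13.0% in integrins. The region was an input of the classifier, so its part in these shares was not tested.

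Prediction scores had a median of 0.780 (quartiles 0.695 and 0.860) against 0.755 over all protein-coding genes. Within the members, the 3′ UTR sites had a median of 0.825 and the coding sites of 0.713. Over all protein-coding genes the medians differed in the same direction, 0.801 and 0.707. Median scores by family were 0.770 for plexins, 0.787 for semaphorins, 0.757 for Eph receptors, 0.782 for ephrins and 0.839 for integrins, the family with the lowest CDS share among those with coding sites.

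**Figure D3:**
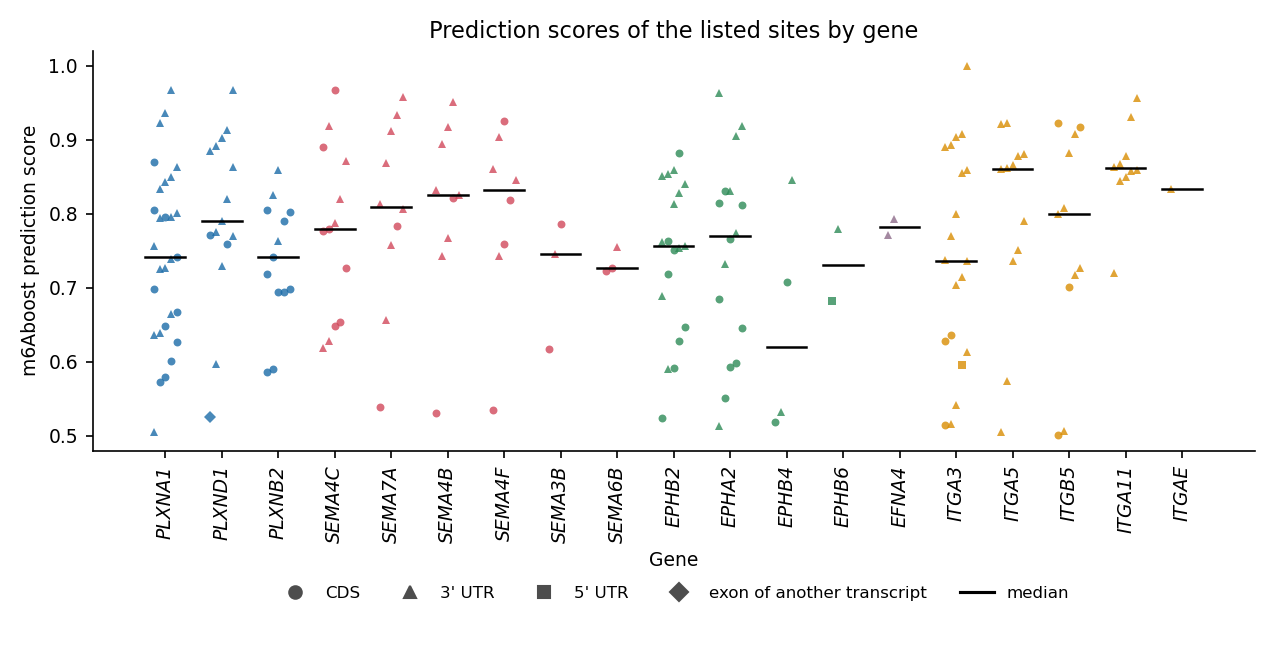
m6Aboost prediction score (y axis) of every listed site in the 19 genes (x axis), with circles for the CDS, triangles for the 3′ UTR, squares for the 5′ UTR, a diamond for an exon of another transcript and a black line at the gene's median; colours give the family. Triangles reach the highest scores in most genes, and the medians run from 0.620 in EPHB4 to 0.861 in ITGA11.

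Of the 200 sites, 172 (86.0%, 80.5 to 90.1) lay at DRACH, against 88.7% over all protein-coding genes, and all 200 were at an A of the genome. GGACT was the most frequent pentamer with 41 sites (20.5% against 21.7%), followed by GGACA with 29, GGACC with 26, AGACT with 20 and TGACT with 18. The 28 sites outside DRACH had a median score of 0.634, and 9 of them were at GGACG, of which 4 fell in exon 2 of PLXNA1. The pentamer AGACT was listed at 25% (16.8 to 35.5) of its places in the members' transcripts against 15.5% in all, and TGACT at 21.7% (14.2 to 31.7) against 10.5%, while GGACT was listed at 25.2% against 25.4%. Of the 13 DRACH pentamers with a member site, 8 had a higher listed share in the members than in all genes and 5 a lower one, among them GAACA (1.22%, 0.216 to 6.59, against 4.2%) and AGACA (2.38%, 0.813 to 6.77, against 3.20%). This count leaves out the DRACH pentamers with no member site, whose share in the members could not be the higher one. It therefore does not measure a tendency of the members.

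The members' transcripts with a site held 1812 DRACH motifs, of which 171 (9.44%, 8.18 to 10.9) were listed, against 7.13% in all protein-coding genes with a site. In the 3′ UTR the share was 15.4% (12.9 to 18.2) against 8.70%, and in the CDS it was 5.77% (4.52 to 7.34) against 6.18%. Plexins stood highest, with 28 of their 70 3′ UTR motifs listed (40.0%, 29.3 to 51.7). The values were 13.8% in semaphorins, 13.9% in integrins and 9.90% in Eph receptors, where EPHB2 supplies most of the motifs.

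**Figure D4:**
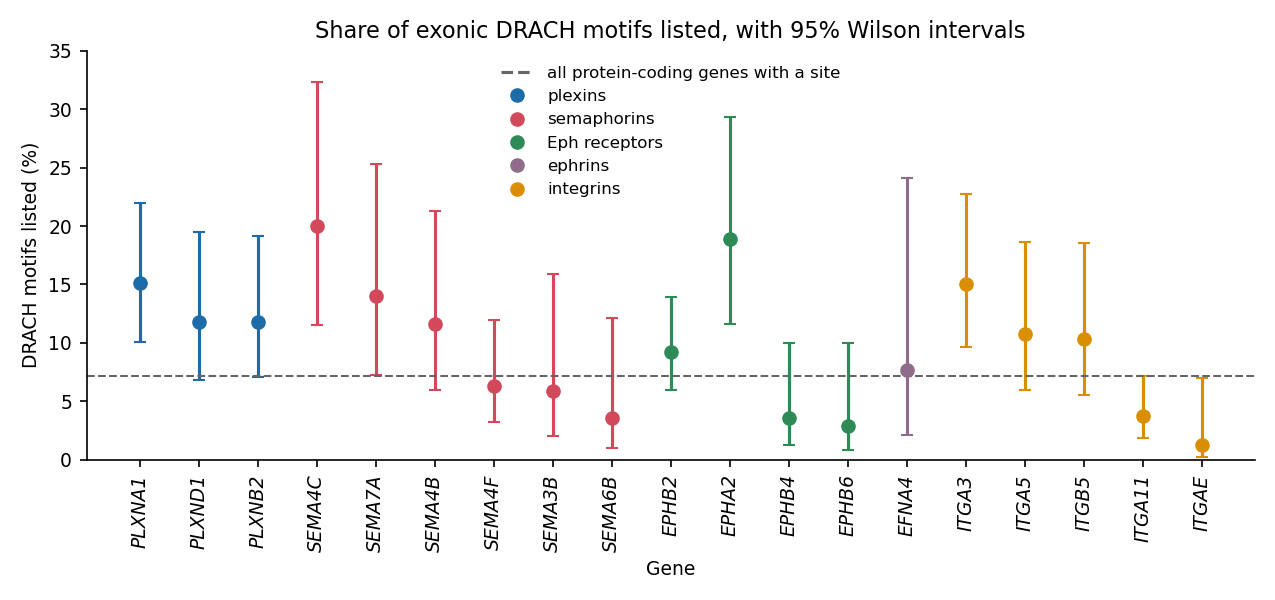
Share of the DRACH motifs in each gene's chosen transcript that were listed (y axis, percent; bars are 95% Wilson intervals) for the 19 genes (x axis), with a dashed line at the 7.13% of all protein-coding genes with a site; colours give the family. SEMA4C (20%) and EPHA2 (18.9%) stand highest and ITGAE (1.3%) lowest, and most intervals reach or cross the line.

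The share of motifs listed was then followed by position. Within 200 nt of the stop codon, 28.6% (21.6 to 36.8) of the members' motifs were listed against 18.7% over all protein-coding genes, and elsewhere 7.92% against 5.44%. Over all genes the listed share fell from 24.0% in the first 200 nt after the stop codon to 6.22% between 800 and 999 nt. In the members it was 30.8% in the first of these bins and 31.9% (20.4 to 46.2) in the last, with 24.3% to 30.9% between them. ITGA3, with 9 sites between 616 and 847 nt, supplied part of the listed motifs from 600 to 999 nt. The shares without ITGA3 were not computed. Further on the members' share fell too, to 15.0% (9.79 to 22.2) from 1000 nt to under 2000 nt and to 0 of 261 motifs beyond that (at most 1.45%), against 4.10% and 1.26% over all genes. EPHB2 and ITGA11 supplied most of the motifs from 2000 nt on, and without them 0 of 45 were listed. Of the sites themselves, 22.2% of the members' DRACH sites were no more than 200 nt from the stop codon, against 33.4% over all genes.

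Coding motifs near exon junctions were rarely listed, in the members as in all genes. Within 100 nt of a junction 17 of 903 (1.88%, 1.18 to 2.99) were listed, and beyond it 44 of 154 (28.6%, 22.0 to 36.2), against 2.36% and 18.0% over all protein-coding genes. The lowest share was within 50 nt of a junction, 5 of 680 motifs (0.735%), and the highest between 201 and 300 nt, 12 of 25 (48%, 30 to 66.5). Internal exons over 400 nt held 31 of the 68 coding sites (45.6%, 34.3 to 57.3) against 25.2% over all genes, and exon 2 of PLXNA1, exon 3 of PLXNB2 and exon 3 of EPHA2 and EPHB2 held 29 of the 31. The other 2 were in exon 10 of ITGB5, which is 430 nt long.

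**Figure D5:**
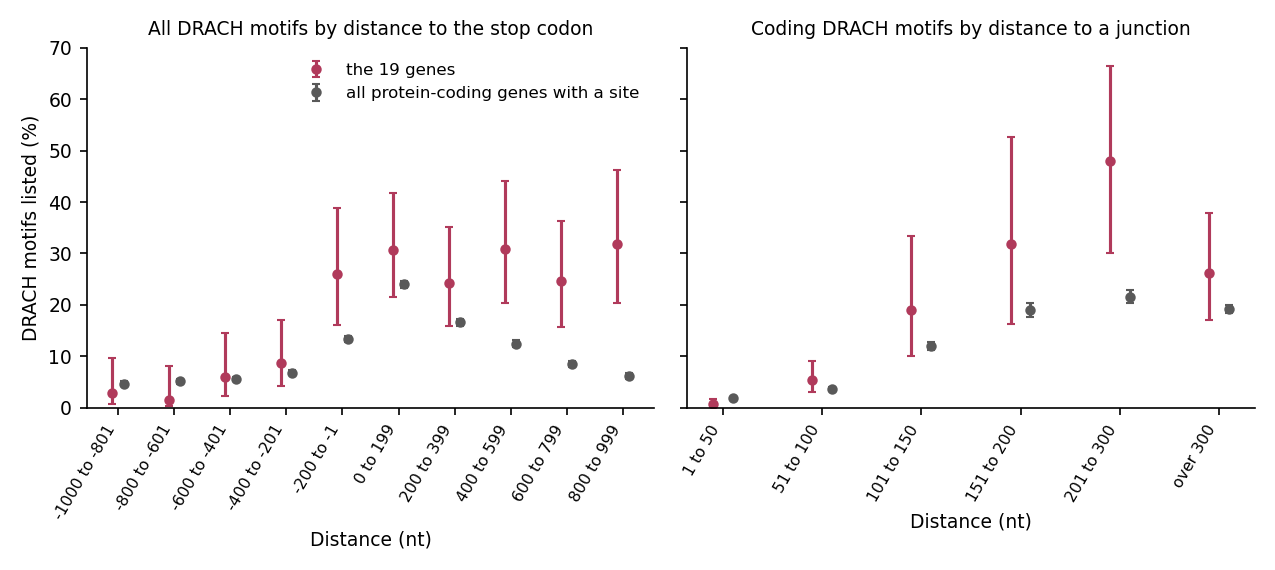
Share of DRACH motifs listed (y axis, percent; bars are 95% Wilson intervals) by distance in nt from the stop codon (left, negative before it) and, for coding motifs, by distance to the nearest exon junction (right), in the 19 genes and in all protein-coding genes with a site. From 0 to 999 nt after the stop codon, where the plot ends, the members stay between 24.3% and 31.9% while all genes fall from 24.0% to 6.22%, and in both sets motifs within 50 nt of a junction are the least often listed.

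Of 180 neighbouring pairs in a transcript, 63 (35%, 28.4 to 42.2) were at most 50 nt apart. The share over all protein-coding genes, 32.3%, lies inside this interval. The closest pair of each family with several sites is shown here, because such pairs share most of their surrounding sequence and in EPHA2 and ITGA5 occupy adjacent adenosines.
PLXNB2 CDS, chr22:50290298-50290318 (- strand), score 0.698: ggctgagaTGACTgacaatgt
PLXNB2 CDS, chr22:50290294-50290314 (- strand), score 0.694: gagatgacTGACAatgtcaac
SEMA4F 3′ UTR, chr2:74681557-74681577 (+ strand), score 0.743: tttgagtcTGACTgactgtgg
SEMA4F 3′ UTR, chr2:74681561-74681581 (+ strand), score 0.904: agtctgacTGACTgtggccag
EPHA2 3′ UTR, chr1:16124774-16124794 (- strand), score 0.513: gcagactgTGAACttgactgg
EPHA2 3′ UTR, chr1:16124773-16124793 (- strand), score 0.963: cagactgtGAACTtgactggg
ITGA5 3′ UTR, chr12:54395837-54395857 (- strand), score 0.575: aagaacctGGAACttggggag
ITGA5 3′ UTR, chr12:54395836-54395856 (- strand), score 0.922: agaacctgGAACTtggggagt
In both adjacent pairs the site at GAACT had the higher score, 0.963 against 0.513 in EPHA2 and 0.922 against 0.575 in ITGA5, and at the other site the A was followed by another A. Whether both adenosines are modified was not tested.

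Plexins, semaphorins and Eph receptors are each families of paralogs. Proteins of their genes with coding sites were aligned to see whether these sites fell at the same codons. Integrin alpha and beta subunits were treated as separate families, which left no integrin pair to align. Among the 20 gene pairs with at least 30% identity, 11 coding sites had a partner in a paralog at most 2 aligned columns away. The 11 are 16.2% (9.28 to 26.7) of all 68 coding sites, but 7 of the 68 are in integrins. Those 7 were in no gene pair and could have no partner. The 11 sites made 6 pairs of sites. EPHA2 and EPHB2, 50.1% identical, gave 3 of these pairs, at codons 104 and 96, 127 and 119, and 127 and 121. PLXNA1 and PLXNB2, 37.2% identical, gave 1 at codons 91 and 74. SEMA4B gave 1 with SEMA4C (codons 834 and 783) and 1 with SEMA4F (codons 642 and 613). These sites are shown in pairs, so that the shared and the differing letters around the modified A can be seen.
EPHA2 CDS, chr1:16148880-16148900 (- strand), score 0.83: actgtacgTGACTgcaacagc
EPHB2 CDS, chr1:22784542-22784562 (+ strand), score 0.628: tcggtgcgTGACTgcagcagc
EPHA2 CDS, chr1:16148811-16148831 (- strand), score 0.766: gccgagtcGGACCtggactac
EPHB2 CDS, chr1:22784611-22784631 (+ strand), score 0.763: tatgaggcTGACTttgactcg
EPHB2 CDS, chr1:22784617-22784637 (+ strand), score 0.751: gctgacttTGACTcggccacc
PLXNA1 CDS, chr3:126988855-126988875 (+ strand), score 0.627: cctgtggaGGACAacgagaag
PLXNB2 CDS, chr22:50290354-50290374 (- strand), score 0.719: ccggccctGGACAacaagaag
SEMA4B CDS, chr15:90228620-90228640 (+ strand), score 0.822: gagatccgTGACTctgtggtg
SEMA4C CDS, chr2:96860770-96860790 (- strand), score 0.727: ggtgggcgGAACTcaaatgcc
SEMA4B CDS, chr15:90228044-90228064 (+ strand), score 0.53: cccactggGGACCtgctgctg
SEMA4F CDS, chr2:74679725-74679745 (+ strand), score 0.926: ggcgggatGGACTggaggtgg
In EPHA2 codon 104 and EPHB2 codon 96 the pentamer was TGACT in both, and in PLXNA1 codon 91 and PLXNB2 codon 74 it was GGACA in both. The EPHA2 site in codon 127 is within 2 columns of a pair of EPHB2 sites. Among the same 20 gene pairs, 174 pairs of coding DRACH motifs sat at the same aligned codon and codon position. Of these, both motifs were listed in 4, 1 of them in 19 and neither in 151. Few coding motifs were listed at all, 5.77% in the members and 6.18% over all protein-coding genes. No expected number of aligned sites or motif pairs was computed, so whether paralogs share sites was not tested.

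In coding sequence the modified A was the middle base of its codon at 44 of 68 sites (64.7%), against 58.1% over all protein-coding genes. The codon GAC, for aspartate, held 40 of them (58.8% against 47.6%). Among coding DRACH motifs, the share listed was 4.81%, 5.45% and 10.2% with the A at codon position 1, 2 and 3, and 4.91%, 6.40% and 7.51% over all genes.

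The presence of a site was also set beside the composition of the transcript. The chosen transcripts of the 19 genes with a site had a median GC content of 60.9%, ranging over genes from 49.6% to 69.7%, and those of the 59 without a site 52.4%, ranging from 35.6% to 65.0%. Over all protein-coding genes the medians were 57.1% and 46.6%, so the direction was that of the transcriptome. The median number of DRACH motifs was 84 with a site and 100 without, and EPHA6 (296 motifs), ITGA1 (246) and PLXNA2 (230) had no site. The transcripts chosen for PLXNA4, SEMA3D and EPHA10 are short isoforms, and the part of RNA levels in these medians was not tested. Among the 19 genes the number of sites and the number of motifs had a Spearman's rho of 0.568, against 0.207 over 3749 genes, as a description across genes that are not independent.

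Partners of these receptors were taken from lists of pathway genes. Both neuropilins, the co-receptors of secreted semaphorins, had sites, NRP1 with 6 and NRP2 with 2. Of 19 genes of semaphorin and plexin signalling, 9 had 45 sites in all. MICAL2, an enzyme that oxidises actin, led with 13, followed by MICALL1 with 9 and MICAL3 with 7. The 7 sites of MICAL3 all lay in exons outside its chosen transcript. Of 11 genes of Eph signalling, 3 had sites: RGS3 with 16, GRB2 with 4 and VAV2 with 1. In RGS3, 5 sites were coding, 6 were in the 3′ UTR and the rest lay in exons outside its chosen transcript.

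Of 26 genes of integrin adhesion, 14 (53.8%) had 111 sites in all. They included the adaptors TNS3 (24), PXN (15) and BCAR1 (15), the actin crosslinker FLNA (12) and the kinase SRC (10). All 15 sites of BCAR1 and all 12 of FLNA were coding, while 16 of the 24 in TNS3 were in the 3′ UTR. Of 18 other axon guidance genes, 2 had sites, RGMB with 8 and UNC5B with 2. These shares compare with the 19.7% of all protein-coding genes, and the number of genes in each list is small.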

How the data were processed

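Per the labels and the study's methods, the authors aligned miCLIP2 reads of the C643 libraries to GRCh38.p12 (hg38) with STAR 2.7.3a, kept uniquely mapping reads, removed duplicates by molecular identifiers (UMI-tools 1.0.0; SAMtools 1.9 and bedtools 2.27.1 were also used), called peaks per replicate with PureCLIP, and kept peaks found in at least 2 replicates. Peaks at A were then classified with m6Aboost from the surrounding sequence, the transcript region, C-to-T transitions and the relative signal strength. The deposited list holds the accepted sites of the pooled replicates, each with a prediction score that is a fraction between 0 and 1. It was used without read counts, so depth per site is unknown and the precision of a single site cannot be given. Sequence and region were inputs of the classifier, and peaks need reads, so abundance, alignment and antibody preference also shape the list.

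Exons came from GENCODE 44 on the same assembly. Regions, distances and motifs were taken on 1 transcript per gene, the longest protein-coding one whose transcript support level was no higher than 3 and whose annotation level was no higher than 2. Motif shares over all genes used the transcripts of protein-coding genes with a site. Proteins of paralogs were translated from these transcripts and aligned globally (gap open 11, gap extend 1) with gaps at the ends not penalised. Identity was the share of identical residues among aligned columns without a gap. Every member was named with its number of sites or as having none, and the 3 genes with the most sites per family were described in full. Shown sequences were chosen by score, by aligned codons and by nearest neighbours. The members and lists were chosen with earlier results of these data known. Alternatives changed the score minimum, transcript, exons, motif, windows and alignment tolerance, and left out single genes. A check of the cell type against marker genes is not reported here. The code was tested on simulated data with planted sites. Python 3.11.15, numpy 2.4.6, scipy 1.17.1, pysam 0.24.0, Biopython 1.88 and matplotlib 3.10.9 were used.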

Additional observations from a re-analysis of the deposited data

How the results depend on the processing

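Of 46 alternative values of 12 results, 33 stayed within the counting interval of the value as reported (counts and medians of counts within 1.5 times of it) and 13 did not. At a score of at least 0.7, the 3′ UTR share was 75.5% and the CDS share was 24.5%, the DRACH share was 93.2%, the share of motifs listed was 7.56%, and 5 coding sites in place of 11 had an aligned partner, since coding sites and sites outside DRACH have lower scores. The 19 genes all kept a site at that score. With RAC in place of DRACH, 92.5% of sites lay at the motif, and with GGACT, 25.2% of its places were listed. A wider or narrower window moved its own share by construction: 14.6% within 100 nt and 37.4% within 400 nt of the stop codon, 8.20% within 50 nt and 52.5% within 200 nt of a junction, and 18.9% within 20 nt and 55.6% within 100 nt for neighbours. The canonical transcript is another one in only 4 genes, and the 7 results recomputed with it had the same values and counts, so this choice was hardly tested. No paired analysis was possible because the design holds a single group of cells. No replicate could be left out because the list is pooled, and depth limits what can be said of genes with no site.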
